A study of Mus musculus with 29 samples.

Results

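The regions described here are 210 stretches of CpG sites in the mouse genome that were almost free of methylation in keratinocytes and mostly methylated in embryonic stem cells (ESCs) grown in serum with LIF (S/L). They were taken from autosomal bins of 1 kb, each with at least 3 CpGs covered by at least 5 reads in each of 9 libraries (3 of keratinocytes, 3 of S/L passage 10 and 3 of S/L passage 20). The level of a bin is its methylated reads as a percentage of all its reads. A bin was included where it lay at 15% or less in each keratinocyte library and at 60% or more in the mean of the S/L passage 10 libraries and in that of passage 20. Of 36411 bins that met the coverage requirement, 210 (0.577%) did so. Keratinocyte and S/L levels therefore chose the bins and are given as a description, without a test.

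Methylation was read by RRBS (reduced representation bisulfite sequencing), which samples CpGs near the cut sites of a restriction enzyme, in 29 libraries of 15 groups. The keratinocytes, the main cell type of the epidermis, were neonatal: 2 male libraries labelled 2i/L, with no label saying how they derive from 2i/L culture, and 1 wild-type female library. All were grown on flasks coated with medium conditioned by a rat epithelial line. Mek1/2 double knockout (DKO) cells, 1 library, were male clonal induced pluripotent stem cells made with doxycycline-inducible Oct4, Klf4, Sox2 and c-Myc from Mek1fl/fl;Mek2-/- fibroblasts, then treated with Cre and kept in S/L on feeder cells; the same cells with their Mek genes intact were not analysed here. The other libraries came from male ESCs of 3 lines (J-34, J-35, J-37), which entered their medium at passage 4. PD and CHIR, in this field the short names of a Mek1/2 and a Gsk3 inhibitor, were each given alone to J-34 for 6 passages (1 library each). The medium a2i/L, whose composition the labels do not give, was used at passage 10 (1 library, J-34) and passage 20 (2 libraries), as was PKCi/L (1 library, J-35, and 2 libraries). The 2i/L medium, which holds both inhibitors, was used for 6 passages (2i/L p10) and 16 passages (2i/L p20), with 1 library per line at each. Cells returned to S/L after 16 passages in 2i/L were collected 3 passages later (p23, 3 libraries) or 10 passages later (p30, 2 libraries). S/L p10 and S/L p20 had 1 library per line each. One p30 library is titled J-35 but labelled J-34 in other fields; it is called J-35 here.

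Cytosine methylation at CpGs is copied to the new strand at replication by Dnmt1 with Uhrf1 and is set anew by Dnmt3a and Dnmt3b. ESCs in S/L carry high methylation outside CpG-rich promoters, while inhibition of Mek1/2 together with Gsk3 brings the level down over the genome. In differentiated cells, short stretches of low methylation away from promoters often mark enhancers and other regulatory DNA of that cell type. CpG-rich promoters are usually unmethylated in every cell type.

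To show what the promoters nearest to bins look like, 3 are printed. They belong to the only transcription factor genes and the only growth factor-binding protein gene among 7 protein-coding genes found to start within 5 kb of a bin. Irx4 and Runx3 encode the factors, and Igfbp3 encodes a protein that binds insulin-like growth factors. They were picked from the 7 after the values had been seen. Each sequence runs 5′ to 3′ along the gene's strand, over 250 bases before and 50 bases after the start (RefSeq, GRCm38.p6). Its place on the mm9 coordinates of the deposited CpGs was found from the spacing of its CpGs. Capitals mark the CpGs that the deposited lists hold.
Igfbp3 promoter (mm9 chr11:7113877-7114176, minus strand): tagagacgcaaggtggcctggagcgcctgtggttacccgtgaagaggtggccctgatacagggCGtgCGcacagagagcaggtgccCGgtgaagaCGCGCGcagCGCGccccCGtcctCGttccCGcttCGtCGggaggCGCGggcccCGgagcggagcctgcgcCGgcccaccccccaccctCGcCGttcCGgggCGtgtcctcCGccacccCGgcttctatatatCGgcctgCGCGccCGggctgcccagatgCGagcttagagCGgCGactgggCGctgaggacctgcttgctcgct
Irx4 promoter (mm9 chr13:73397695-73397994, plus strand): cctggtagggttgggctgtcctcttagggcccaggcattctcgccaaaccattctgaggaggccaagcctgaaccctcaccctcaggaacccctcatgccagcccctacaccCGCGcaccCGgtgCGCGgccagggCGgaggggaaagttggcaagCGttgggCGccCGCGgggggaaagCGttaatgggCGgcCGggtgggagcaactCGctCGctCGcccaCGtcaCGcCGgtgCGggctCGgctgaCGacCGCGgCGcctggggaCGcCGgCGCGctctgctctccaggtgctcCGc
Runx3 promoter (mm9 chr4:134708210-134708509, plus strand): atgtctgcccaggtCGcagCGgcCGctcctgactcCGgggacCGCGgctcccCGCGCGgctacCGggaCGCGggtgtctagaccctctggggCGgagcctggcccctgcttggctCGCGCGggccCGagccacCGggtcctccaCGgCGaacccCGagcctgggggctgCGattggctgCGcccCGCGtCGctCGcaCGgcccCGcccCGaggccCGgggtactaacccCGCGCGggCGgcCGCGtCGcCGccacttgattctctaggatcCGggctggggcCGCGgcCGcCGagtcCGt
The deposited lists held 31 CpGs of the Igfbp3 promoter, 30 of the Irx4 promoter and 45 of the Runx3 promoter. Of these, 3, 6 and 11 had the 5 reads in each of the 9 libraries that counted as measured, and by the same measure the bins near them had 4, 5 and 3. The sequence of the bins themselves was not used here.

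The libraries held 8359802 to 22433006 reads over CpGs, the fewest in the wild-type keratinocytes. Over the 210 bins the median depth was 34 reads per bin in a keratinocyte library and 52 in the others. At 52 reads a level of 50% in a single library has a Wilson 95% interval of 36.9% to 63.1%. For 0 methylated of 34 reads, the rule of 3, which divides 3 by the reads, allows a level of up to 8.82%. Both cover counting error only. The reads carry no molecular identifiers. The cells were measured in bulk, so a lower level in every cell and more cells with unmethylated copies cannot be told apart. Each ESC line gave 1 library per group, and p-values measure the spread between these libraries.

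Before the results, 1 bin has to be set apart. On chromosome 3, the bin at chr3:61963051-61963347 (3 CpGs) had 312 to 1933 reads in 9 libraries, namely the keratinocytes, a2i/L p20, PKCi/L p20 and p30, and 14 to 56 reads in the other 20. Its level was 2.64% to 9.63% in those 9 libraries, against 71.4%, 71.4% and 72.5% at p23 and 72.5%, 71.4% and 84.6% in S/L p20 (J-34, J-35 and J-37). Its depth, scaled to the library total, was 18.9 times higher in keratinocytes than in S/L, and no other of the 210 bins differed by more than 4 times. Of the 210 bins, 199 lay at 50% or more in each of the 6 ESC libraries of a2i/L p20, PKCi/L p20 and p30. All keratinocyte libraries belong to that set of 9, and whether their low level went with it was not tested.

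The 210 bins were CpG-poor. They had a median of 3 measured CpGs spanning a median of 98 bp: 129 bins had 3, 45 had 4 and 36 had 5 or more, up to 10 in a single bin. This density did not set them apart from other DNA methylated in S/L. The 7936 bins at 60% or more in each keratinocyte library and in both S/L means, called methylated in both below, also had a median of 3, and all 36411 bins had a median of 5. The median span was 102 bp in the bins methylated in both and 172 bp over all bins. It runs from the first to the last measured CpG and does not give the length of an unmethylated stretch. The number of CpGs listed in the bin with any coverage had a median of 7 in the 210 bins, 7 in the bins methylated in both and 16 over all bins. Of the 9794 bins that met the S/L limits, 2.26% of those with 3 CpGs, 1.88% of those with 4, 2.13% of those with 5 to 9 and 2.08% of those with 10 or more (1 of 48) were among the 210.

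The keratinocyte limit cut a sloping distribution. By the highest keratinocyte level, the 9794 bins divided into 210 at 15% or less, 220 above that up to 30%, 659 above 30% up to 60% and 8705 above 60%. Just inside the keratinocyte limit, 3 bins had a highest keratinocyte level of 14.8%, and the 3 just outside had 15.1%, 15.2% and 15.2%. Just inside the S/L limit the lower of the S/L means was 60.01%, 60.8% and 60.9%, and just outside it was 59.9%, 59.8% and 59.6%.

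Within the bins the low keratinocyte level was shared by nearly all CpGs. The limits that chose the bins were set on the same libraries and help to force this, so the CpG counts are a description. Pooled over the keratinocyte libraries, 720 of 769 CpGs lay at 15% or less, 757 lay at 50% or more over the S/L libraries, and 708 did both. In 160 of the 210 bins every measured CpG did both. In keratinocytes 189 bins (90%) had at least 1 methylated read, and 21 had none. Conversion rates are not stated, so reads left unconverted cannot be told apart from methylated ones. The median of the bins was 3.57% and 3.45% in the 2i/L keratinocyte libraries and 4.30% in the wild-type library. Pooled over the bins, 5.38% of the wild-type library's reads were methylated (Wilson 95% interval 4.88% to 5.93%). The 2i/L keratinocyte mean lay within 10 points of the wild-type library in 204 of 210 bins, as the limit of 15% largely forces.

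The bins were scattered over the genome. They lay on all 19 autosomes, at 0.974% (chromosome 19) to 4.32% (chromosome 3) of the S/L-methylated bins there. No bins followed each other with gaps of 3 kb or less, and the closest pair, on chromosome 5, was 13800 bp apart. The median distance to the nearest dense unmethylated bin (10 or more CpGs, at 10% or less) was 66458 bp for the 210 bins and 54871 bp for the bins methylated in both. Only 1 of 210 (0.476%) lay within 2 kb of such DNA, beside 75 of 7936 (0.945%), and 12 (5.71%) lay within 5 kb, beside 5.13% of the bins methylated in both.

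CpGs around the bins were higher in keratinocytes than those inside, which the limit of 15% had chosen to be low. Distances here are from the middle of the nearest bin. Inside them the mean CpG level was 5.09% in keratinocytes and 78.2% in S/L. Measured CpGs outside were few. At up to 250 bp away, 9 CpGs averaged 20.1% in keratinocytes and 81.7% in S/L; at 250 to 500 bp, 18 CpGs averaged 40.0% in keratinocytes and 84.6% in S/L. At 500 to 1000 bp, 32 CpGs averaged 40.9% in keratinocytes and 63.4% in S/L. Between 1 and 2 kb away the levels were 41.0% in keratinocytes and 47.2% in S/L over 110 CpGs. At 2 to 3 kb they were 19.2% and 21.2% over 206 CpGs, and at 3 to 5 kb both stood at 30.4% over 348 CpGs. Around the bins methylated in both, keratinocytes had 77.7% and S/L 72.7% at 250 to 500 bp. At 1 to 2 kb from those bins the levels were 43.1% and 35.3%.

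**Figure D1:**
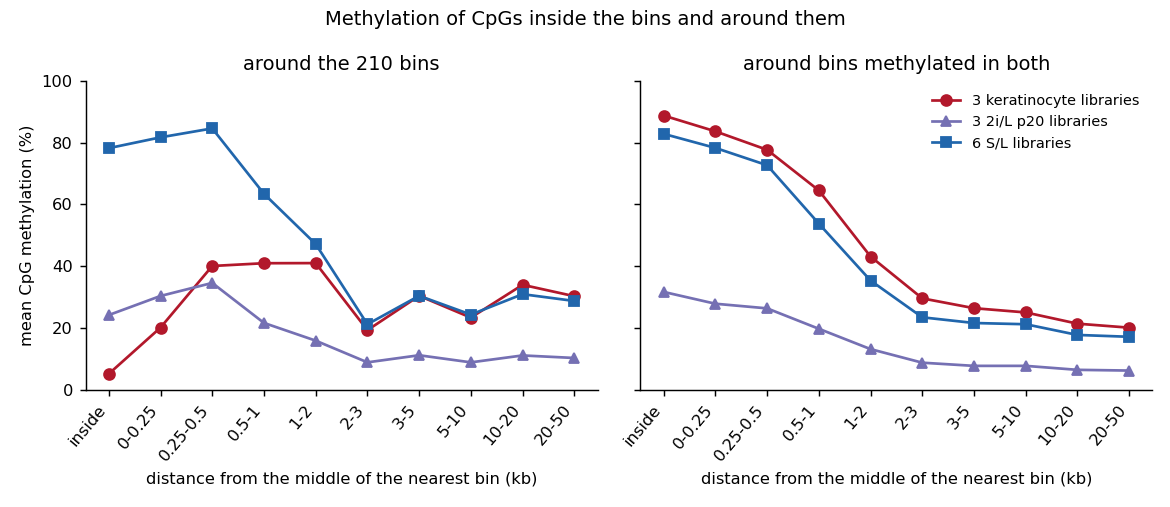
Mean CpG methylation (%, y axis) inside the bins and in classes of distance from the middle of the nearest bin (kb, x axis) in keratinocytes, 2i/L p20 and S/L, around the 210 bins and around the 7936 bins methylated in both. Around the 210 bins the keratinocyte mean was 5.09% inside and 40.0% at 250 to 500 bp, while S/L stayed at 78.2% and 84.6%.

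Gene starts could be placed on the mm9 CpG positions for 8422 genes, and distances, taken from the middle of a bin, are upper limits, since an unplaced gene may lie closer. For the 207 bins on a chromosome with a placed protein-coding start, the median distance was 82974 bp, against 62667 bp for the bins methylated in both. None of the 207 lay within 1 kb of a placed start, 7 (3.38%) lay within 5 kb and 66 (31.9%) within 50 kb, beside 16, 375 (4.86%) and 3404 (44.1%) of the bins methylated in both. Within the length of a placed gene lay 55 of 210 (26.2%), beside 33.5% of the bins methylated in both.

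No gene of the keratinocyte marker lists had a bin near a placed start, but few such genes were placed. Of 107 marker genes in 11 lists, 22 were placed, and 0 of them had one of the 210 bins within 100 kb; 17 had a bin methylated in both. Over all 7340 placed protein-coding genes, 198 (2.70%) had one of the 210 bins within 100 kb and 64.4% had a bin methylated in both, so 0 of 22 is near the background. The placed ones included 4 of 14 transcription factors (Tfap2a, Grhl1, Grhl3 and Gata3), 5 of 21 adhesion genes, 2 of 10 basement membrane genes, 1 of 9 cornified envelope genes, 5 of 11 signalling genes and 0 of 14 keratins. The lists for fibroblasts (2 of 8 placed), blood (1 of 4), endothelium (0 of 3), melanocytes (1 of 4) and pluripotent or germline cells (1 of 9) also gave 0. Promoters could be read for 18 of the 22 genes and lay at 15% or less in keratinocytes and in S/L alike, so the labelled cell types could not be checked against them, and no expression was measured.

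Culture in 2i/L removed most of the methylation of these bins. The median of the 210 bins was 30%, 27.9% and 30.5% in 2i/L p10 (J-34, J-35 and J-37), against 82.1%, 82.5% and 82.9% in S/L p10. At passage 20 it was 33.3%, 21.4% and 14.6% in 2i/L, against 76.7%, 75.2% and 77.3% in S/L. Every 2i/L library lay below every S/L library of its passage, and this also held within each of the 210 bins at both passages, where 51.2% (p10) and 46.5% (p20) of all bins showed it. The S/L limit of the rule helped to fix that count. Means of the library medians were 29.5% ± 1.41 in 2i/L p10, against 82.5% ± 0.371 in S/L p10. At passage 20 they were 23.1% ± 9.499 in 2i/L p20, against 76.4% ± 1.10 in S/L p20 (SD, n = 3 each).

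**Figure D2:**
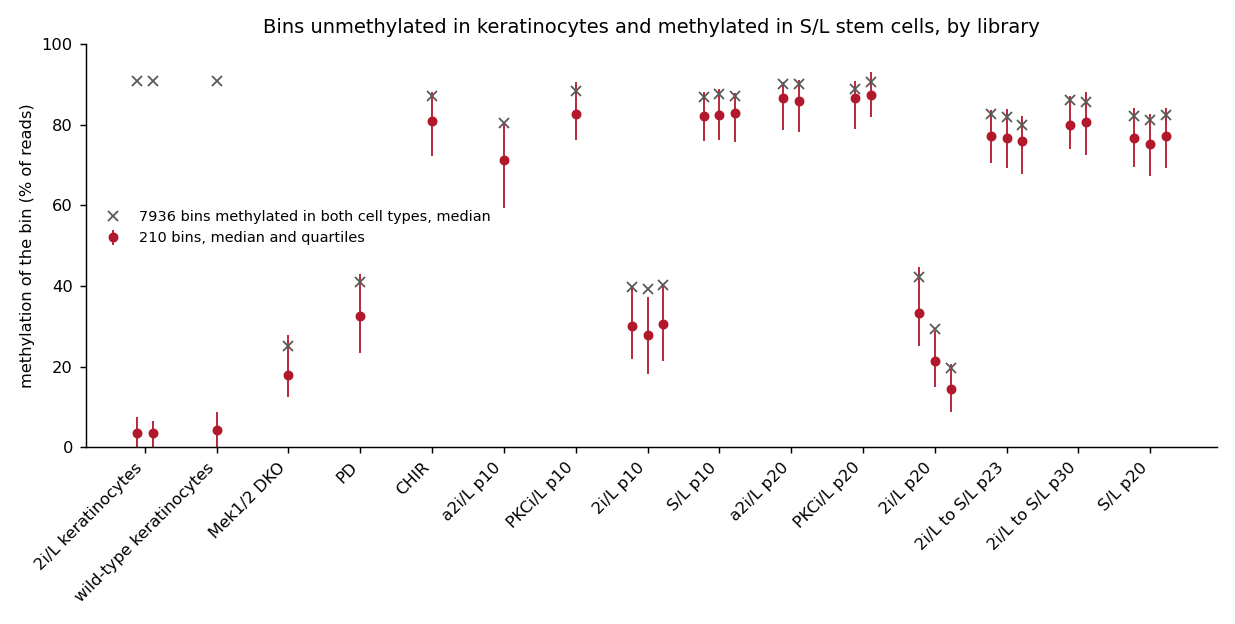
Methylation of the 210 bins (%, y axis) in each of the 29 libraries (x axis); points are medians over the bins, bars run from the lower to the upper quartile, and crosses are medians of the 7936 bins methylated in both. The 3 libraries of 2i/L p20 have medians of 33.3%, 21.4% and 14.6%, and the 3 of p23 lie between 75.8% and 77.1%.

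For a test in S/L libraries that had not chosen the bins, bins were chosen again with 1 S/L passage left out and tested in that passage. The S/L limit still applied to the other passage of the same lines, so these tests are only partly independent of the rule. Leaving out S/L p10 changed the choice little, with 211 bins against 210. With the limits applied to keratinocytes and S/L p10 alone, 275 bins were chosen and 271 could be tested. limma with Benjamini-Hochberg adjustment called 269 of these lower in 2i/L p20 than in S/L p20 (99.3%), and the background was 35.2% of 36169 bins. With S/L p20 alone, 207 of 208 tested bins fell in 2i/L p10 relative to S/L p10 (99.5%; background 38.5%). A call required both a limma adjusted p under 0.05 and at least 20 points between the group means. Among the 7793 tested bins methylated in both, 99.4% and 97.0% were called. S/L levels of both passages chose that set, and the difference between the sets was not tested.

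The 2i/L level of the 210 bins was mostly above the keratinocyte level, which the limit of 15% had chosen to be low. The gap is therefore given as a description. At 15% or less lay 14, 53 and 112 of the 210 bins in 2i/L p20 (J-34, J-35 and J-37). The 2i/L p20 mean exceeded the keratinocyte mean by a median of 18.8 points; it lay within 10 points of it in 35 bins and below it in 1. The median differences were -51.6 points between 2i/L p10 and S/L p10 and -52.7 points between 2i/L p20 and S/L p20. They were -46.0 and -49.7 points in the bins methylated in both and -3.10 and -1.61 points over all bins. At a matched S/L p20 level of 80% to 90%, the median 2i/L p20 level was 27.2% over 60 of the 210 bins and 33.1% over 3577 of the bins methylated in both; the difference between the sets was not tested.

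Time in 2i/L went with a spread between lines. At p20 the order J-34 above J-35 above J-37 held in 161 of the 210 bins (76.7%), in 69.6% of the bins methylated in both and in 31.3% of all bins. From p10 to p20 the median change was 3.05 points in J-34, -5.75 points in J-35 and -15.6 points in J-37, and 81, 153 and 195 of the 210 bins were lower at p20. In the bins methylated in both the changes were 1.80, -9.07 and -19.4 points, and 3434, 6216 and 7534 of 7936 were lower. Over all 36411 bins, 13470, 18059 and 21073 were lower. All 2i/L p20 libraries lay below all 2i/L p10 libraries in 26 bins (12.4%), beside 18.4% of the bins methylated in both and 7.87% of all bins. limma with Benjamini-Hochberg adjustment called 0 of 207 bins lower at 2i/L p20 (background 0.0525%); 43 bins (20.8%; all bins 11.5%) were below an unadjusted p of 0.05, and 3 were called lower by a quasi-binomial model (all bins 0.86%). Without the J-34 2i/L p20 library, 11 were called (all bins 0.896%).

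Single bins differed widely in how much they kept in 2i/L p20. The lowest lay at chr11:78896782-78896867 (3 CpGs), within Ksr1, which encodes a scaffold protein of the Raf-Mek-Erk cascade. It had 7.14%, 3.12% and 0% in 2i/L p20 of J-34, J-35 and J-37, against 75%, 55.4% and 82.6% in S/L p20. At p23 it had 63.0%, 67.4% and 44.3%, and at p30 it had 88.9% and 73.3% (J-35 and J-37). Its 2i/L p20 libraries overlapped the keratinocyte libraries, which had 2.78%, 4.76% and 0%, and no return library overlapped either. Next came chr19:8738844-8738899 (4.64% ± 8.04), chr5:120656568-120656629 (6.60% ± 2.80) and chr1:19101323-19101350 (7.73% ± 6.58; SD, n = 3 each).

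The chromosome 1 bin, with 5 CpGs, stood out in its return. It had 48.0%, 56.9% and 33.8% at p23, against 14.3%, 7.78% and 1.12% in 2i/L p20. At p30 it had 30% and 28.9%, and S/L p20 had 61.5%, 57.6% and 63.6%. Both p30 libraries lay below every p23 and every S/L p20 library.

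At the other end, chr4:124248332-124248353 (3 CpGs) kept the highest level. It had 0% in each keratinocyte library, 71.1%, 54.8% and 33.3% in 2i/L p20 of J-34, J-35 and J-37, and 79.4%, 80% and 76.4% in S/L p20. The order of the lines was that of most bins, and J-34 came near S/L without overlapping it. The bins at chr15:82785586-82785711 and chr1:79708132-79708226 followed, averaging 51.3% ± 14.1 and 48.7% ± 7.41 there (SD, n = 3 each).

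After the return to S/L, methylation came back at every one of these bins. The median of the 210 bins was 77.1%, 76.8% and 75.8% at p23 (76.6% ± 0.675, SD, n = 3), against 33.3%, 21.4% and 14.6% in 2i/L p20 (J-34, J-35 and J-37). The number of bins at 50% or more was 206, 206 and 202 at p23 and 26, 3 and 0 in 2i/L p20. Every p23 library lay above every 2i/L p20 library in 210 of 210 bins, beside 53.9% of all bins. limma with Benjamini-Hochberg adjustment called 207 of 207 tested bins higher at p23 (background 39.5%), and so did the quasi-binomial model; without the chromosome 3 bin of uneven depth it was 206 of 206. Of the bins methylated in both, 98.9% were called higher. The difference p23 minus 2i/L p20 had a median of 52.0 points and ran from 29.6 to 80.2 points, with adjusted p from 3.36e-10 to 0.00396 (limma).

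**Figure D3:**
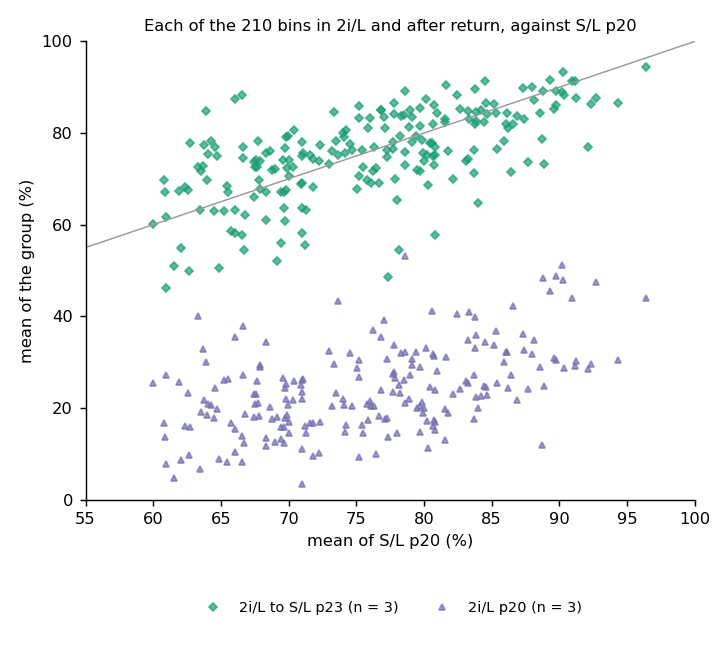
Mean level of each of the 210 bins (%, y axis) at p23 and in 2i/L p20 against its mean level in S/L p20 (%, x axis); the line marks equality. The p23 points lie around the line, within 10 points of it for 173 bins whose S/L p20 level helped to choose them, and each bin's 2i/L p20 point lies below it, the closest at -23.2 points.

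Next the returned level was set against that of cells never in 2i/L. In the 275 bins chosen without S/L p20, the p23 mean minus the S/L p20 mean had a median of 2.06 points and was within 10 points in 205 (74.5%), beside a median of 0.388 points and 86.2% over all bins. In the 210 bins, which S/L p20 helped to choose, the median was 0.219 points. The spread between lines seen in 2i/L p20 was gone: the medians of the lines lay between 75.8% and 77.1% at p23.

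**Figure D4:**
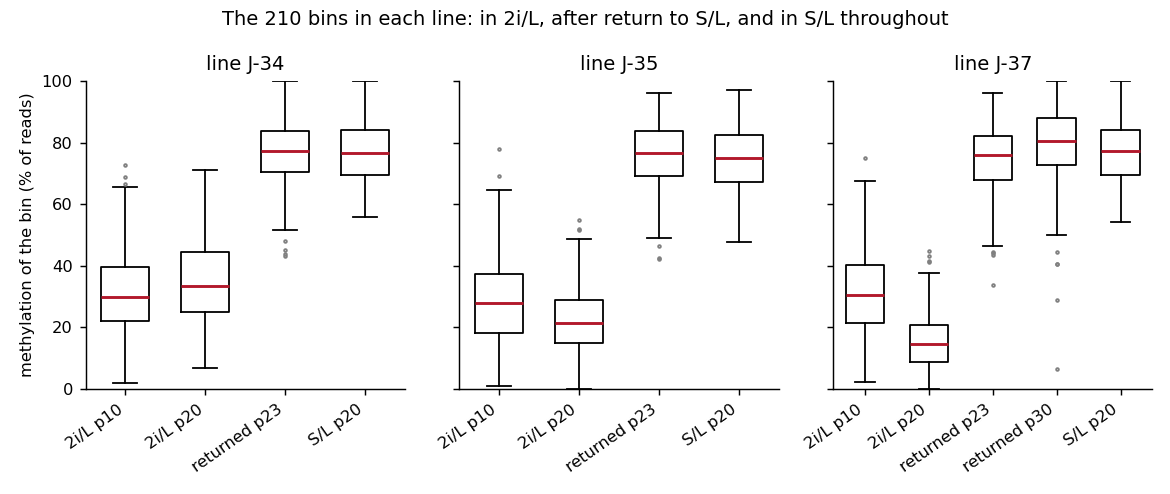
Levels of the 210 bins (%, y axis) in each line (panels J-34, J-35 and J-37) in 2i/L p10, 2i/L p20, after the return (p23, and p30 for J-37) and in S/L p20; boxes are quartiles with the median, whiskers reach the farthest bin within 1.5 box lengths and points lie beyond. In 2i/L p20 the medians are 33.3% in J-34, 21.4% in J-35 and 14.6% in J-37, and at p23 they are 77.1%, 76.8% and 75.8%.

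Since S/L p20 levels chose the 210 bins, the test of p23 against S/L p20 was made in the 271 tested bins chosen without that group. limma with Benjamini-Hochberg adjustment called 3 higher (background 0.76%) and 0 lower (background 0.257%) at p23; 25 bins (9.23%; all bins 14.9%) were below an unadjusted p of 0.05, and 8 higher (all bins 2.38%) and 2 lower calls (all bins 0.523%) came from the quasi-binomial model. One of the 3 is the Il6ra bin described next, and all 3 calls were lost with a pseudocount of 0.5. At p30, 13 were called higher than in S/L p20 (background 3.2%) and 1 lower (background 0.0968%), the last being the bin of uneven depth. The fit with the line as a replicate block also left out the p30 library titled J-35. That left 1 library at p30, so its count is not given.

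The largest return lay in Il6ra, which encodes the alpha chain of the interleukin-6 receptor, at chr3:89676324-89676379 (5 CpGs). It had 87.5%, 86.3% and 91.1% at p23, against 7.59%, 7.46% and 9.26% in 2i/L p20 (J-34, J-35 and J-37). Its levels were 86.7% and 87.5% at p30 and 75.5%, 54.3% and 69.8% in S/L p20. The lines hardly differed in 2i/L p20, and each p23 library lay above each S/L p20 library. The p23 mean was 80.2 points above 2i/L p20 (limma adjusted p = 3.36e-10) and 21.8 points above S/L p20 (limma adjusted p = 0.0365).

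Other large returns were at chr11:57362754-57362915 (69.5 points, 6 CpGs), chr7:86257607-86257704 within Acan (68.7 points), which encodes the cartilage proteoglycan aggrecan, and chr5:38256914-38256995 (66.8 points). The last lies upstream of Msx1, a homeobox transcription factor gene, at -41130 bp from its placed start. It had 82.2%, 81.4% and 72.3% at p23, against 25.0%, 10.6% and 0% in 2i/L p20. The order of the lines was the same in both groups, which did not overlap.

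The smallest return was at chr10:24736123-24736143 (3 CpGs), with 55.6%, 56.7% and 51.3% at p23, against 47.1%, 16.7% and 11.1% in 2i/L p20. J-34 thus gained little there, while p30 had 81.8% and 90.9% and S/L p20 had 88.9%, 66.7% and 78.9%. The p23 mean was 29.6 points above 2i/L p20 (limma adjusted p = 0.00396). At chr4:88286922-88286986 (4 CpGs) the pattern was alike, with 55.6%, 67.1% and 50.6% at p23 and 46.9%, 15.8% and 8.96% in 2i/L p20. In both bins all p23 libraries lay below all p30 and all S/L p20 libraries. Between them in size of return lay chr15:79891807-79891871 (31.9 points) and chr3:107471815-107471906 (32.4 points). There the p23 mean was not below the S/L p20 mean. The former had 77.6%, 71.1% and 77.1% at p23, overlapping its 75%, 78.1% and 67.8% in S/L p20. The latter had 69.5%, 76.6% and 71.4% at p23, above its 55.7%, 65.1% and 69.1% in S/L p20. Their 2i/L p20 means were 43.4% and 40.1%.

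Between p23 and p30 the bins moved little. The median of the bins was 80% and 80.6% at p30 and 77.1%, 76.8% and 75.8% at p23. Both p30 libraries lay above all p23 libraries in 68 of 210 bins (32.4%; all bins 18.9%) and below in 18 (8.57%; all bins 9.41%). limma with Benjamini-Hochberg adjustment called 0 of 207 higher at p30 (background 0.158%); 31 bins (15%; all bins 12.3%) were below an unadjusted p of 0.05. The quasi-binomial model called 0 higher (all bins 0.57%) and 2 lower (all bins 0.0995%). The 1 lower call by limma (background 0.0194%) was the bin of uneven depth.

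The bins with most CpGs also rose from 2i/L p20 to p23. The one with 10 CpGs, chr5:120246721-120246870, had 69.4%, 81.4% and 71.4% at p23, against 31.2%, 26.0% and 11.8% in 2i/L p20 (J-34, J-35 and J-37). It had 4.35%, 4.48% and 6.14% in keratinocytes, against 83.3%, 56.7% and 62.7% in S/L p20. The groups p23 and S/L p20 overlapped, and 2i/L p20 lay between them and the keratinocytes. The bin with 9 CpGs at chr17:48194267-48194579 averaged 72.4% ± 2.33 at p23, 18.4% ± 9.97 in 2i/L p20 and, for S/L p20, 69.9% ± 6.31 (SD, n = 3 each).

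Near gene starts, the bins changed beside promoters that stayed unmethylated. All 7 promoters could be read, with a highest group mean of 4.17% in keratinocytes and 1.33% in S/L. The Igfbp3 bin (chr11:7112181-7112749, 4 CpGs) has its middle 1461 bp downstream of the placed start. It had 63.2%, 64.3% and 61.9% at p23, 56.1% and 56.0% at p30, 24.0%, 11.8% and 8.06% in 2i/L p20 and 70.6%, 70.1% and 73.2% in S/L p20. No return library reached the S/L p20 libraries, although all lay above 2i/L p20 (p23 against 2i/L p20: limma adjusted p = 2.98e-07). In keratinocytes it had 6.38%, 2.86% and 3.33%.

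The Irx4 bin (chr13:73395255-73395967, 5 CpGs) has its middle 2334 bp upstream of the start and is the only one of the 7 on that side. It had 64.0%, 68.1% and 71.4% at p23, against 36.9%, 29.2% and 20.5% in 2i/L p20 (limma adjusted p = 1.64e-05), and S/L p20 had 67.2%, 65.9% and 70.5%. The p23 and S/L p20 libraries overlapped, and 2i/L p20 stayed below both. The Runx3 bin (chr4:134712105-134712210, 3 CpGs) has its middle 3697 bp downstream of the start in the printed promoter. It had 63.4%, 66.7% and 71.4% at p23, against 19.6%, 13.2% and 7.32% in 2i/L p20 (limma adjusted p = 1.03e-06), and S/L p20 had 70.6%, 57.6% and 76.7%. Here too p23 and S/L p20 overlapped.

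The other 4 were downstream of Edf1, which encodes a transcriptional coactivator, App, which encodes the amyloid precursor protein, Col27a1, a fibrillar collagen gene, and Nt5dc2. Nt5dc2 had the lowest mean of the 7 at p23, with 45%, 46.4% and 60% at p23, against 6.98%, 13.2% and 6.38% in 2i/L p20; p30 had 76.9% and 82.4% and S/L p20 had 57.1%, 68.3% and 69.2%. Its p23 libraries all lay below its p30 libraries and overlapped S/L p20. Col27a1 had 90.5%, 91.9% and 91.4% at p23, against 54.2%, 12.5% and 20.9% in 2i/L p20.

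**Figure D5:**
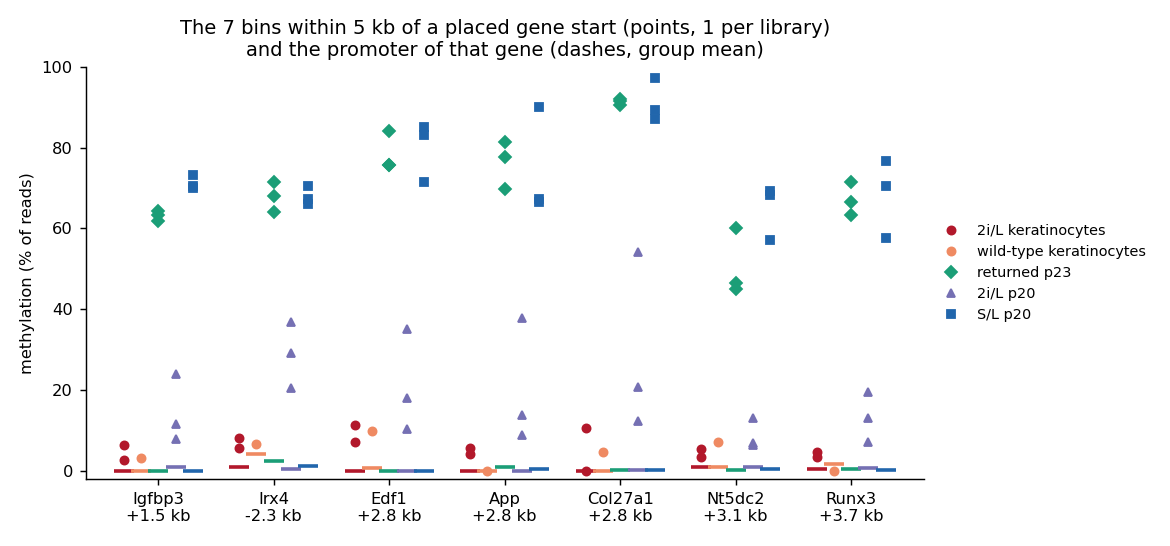
Methylation (%, y axis) of the 7 bins within 5 kb of a placed start (x axis, named by gene and distance) in each library; points are libraries coloured by group and dashes are the mean of the promoter itself in that group. The promoters lie at 4.17% or less in keratinocytes and 1.33% or less in S/L, while the Igfbp3 bin has 61.9% to 64.3% at p23 and 8.06% to 24.0% in 2i/L p20.

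Among genes paired with a bin inside them or near their start, 10 had the most CpGs behind their placement: Zfp618, Pitpnm2, Dock8, Rbms1, Runx3, Mllt1, Plcb4, Slc35f3, Mbnl1 and Gse1. Their bins averaged 61.0% to 91.6% at p23 and 11.7% to 45.5% in 2i/L p20, and each was called higher at p23. Mbnl1, which encodes a splicing regulator, had 76.0% ± 10.3 at p23, 20.3% ± 5.09 in 2i/L p20 and, for S/L p20, 73.2% ± 11.9 (SD, n = 3 each). Plcb4, a phospholipase C gene, stood lowest on both counts, with 61.0% ± 5.04 at p23, 11.7% ± 7.75 in 2i/L p20 and, for S/L p20, 68.3% ± 8.59 (SD, n = 3 each). Pitpnm2 stood highest, with 91.6% ± 4.14 at p23, 45.5% ± 10.2 in 2i/L p20 and, for S/L p20, 89.3% ± 2.95 (SD, n = 3 each).

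Of 2 further genes, chosen after their values were seen and in none of the marker lists, which gave 0 of 22, Lrig1 encodes a receptor regulator known as a marker of epidermal stem cells and Runx1 a transcription factor used in hair follicle and blood. The Lrig1 bin (chr6:94578292-94578367) had 75%, 64.4% and 81.4% at p23, against 25.0%, 27.8% and 16.0% in 2i/L p20, and 74.5%, 56.2% and 71.7% in S/L p20. The Runx1 bin (chr16:92624139-92624252) had 80.9%, 86.7% and 87.3% at p23, against 63.0%, 23.4% and 20% in 2i/L p20, and 81.1%, 72.0% and 77.4% in S/L p20. In both, p23 did not overlap 2i/L p20, and J-34 kept most at the Runx1 bin in 2i/L p20.

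The alternative media left the bins methylated. The median of the bins was 86.7% (J-34) and 85.9% (J-35) in a2i/L p20, 86.7% (J-34) and 87.4% (J-35) with PKCi/L p20, against 33.3%, 21.4% and 14.6% in 2i/L p20. Both media lay above every 2i/L p20 library in nearly all bins, 208 for a2i/L and 209 for PKCi/L, beside 54.6% and 56.2% of all bins. limma with Benjamini-Hochberg adjustment called 204 of 207 higher in a2i/L p20 (background 39.4%), while for PKCi/L p20 it called 205 (background 39.3%), with median differences of 59.8 and 61.99 points. Each comparison had 1 lower call (backgrounds 0.00276% and 0.00553%), the bin of uneven depth. Both are set against the same 2i/L p20 libraries, as is p23. Of the bins methylated in both, 99.6% (a2i/L) and 99.5% (PKCi/L) were called higher. With either medium, 99.7% of them lay above every 2i/L p20 library.

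PKCi/L p20 and a2i/L p20 differed by a median of 1.67 points. limma called 0 of 207 bins between them in either direction (backgrounds 0.0581% higher and 0.0415% lower in PKCi/L); 10 bins (4.83%; all bins 9.07%) were below an unadjusted p of 0.05, and 1 was called lower by the quasi-binomial model (all bins 0.406%). At p10, where each medium had 1 library of another line and no test was made, the median was 82.7% in PKCi/L (J-35) and 71.2% in a2i/L (J-34).

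The libraries without replicates placed the bins at either end. DKO cells had a median of 18.04%, with 1 bin at 50% or more and 75 at 15% or less; pooled over the bins, 19.7% of reads were methylated (Wilson 95% interval 19.1% to 20.4%). PD gave a median of 32.7%, with 28 bins at 50% or more and a pooled 32.3% (31.6% to 33.1%). CHIR gave a median of 81.0% over 209 covered bins, with 207 at 50% or more and a pooled 79.9% (79.0% to 80.7%). PD was below CHIR in all 209 bins, by a median difference of -46.3 points. So it was in 7906 of 7930 bins methylated in both (median -43.8 points) and in 26420 of 36402 of all bins (median -2.5 points). The bins methylated in both had medians of 25.0% in DKO, 41.0% in PD and 87.2% in CHIR. These are comparisons of libraries, not of conditions.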

How the data were processed

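RRBS libraries were made with the NuGen Ovation kit, with 12 barcoded reactions pooled before bisulfite conversion and sequenced on a HiSeq2500, per the labels' protocols. BSMAP 2.89 and build mm9 were used, per the submitters' processing notes; neither trimming nor conversion rates are stated in what was used here. The authors deposited 1 list of CpGs per library, with methylated over all reads in a text field. The deposited score was checked in all 29 files and is the same share times 1000, with decimals dropped. Bins are printed as mm9 coordinates counted from 1, beginning at their first measured CpG and ending at their last.

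The 210 bins and the gene lists were chosen with earlier results of these data known. Because the read pairs stand in a text field, limma 3.58.1 (R 4.3.3) was used on log2((methylated + 1)/(unmethylated + 1)) over the 21 libraries of 8 replicated ESC groups, two-sided, with group as the factor and Benjamini-Hochberg adjustment over 36169 bins with at least 10 reads in each. Of the 210 bins, 207 passed. A quasi-binomial model was the second tool. All else used Python 3.11.15, numpy 2.4.6 and pandas 2.3.3. The scripts were tested on simulated data.

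Same-numbered libraries come from the same cell line. The deviations from group means correlated with a median r of 0.00527 over 57 same-line pairs (-0.103 to 0.0673) and -0.00184 over 116 pairs of different lines (-0.0981 to 0.103).

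With no mm9 annotation, RefSeq promoter sequences (GRCm38.p6) were placed by the spacing of their CpGs, with at least 8 matching and at least 3 more than at the next best place. This rule was widened after the data were seen. It placed 9512 of 31396 sequences, and 99.9% of 9510 neighbouring pairs kept the order of their assembly. No start was placed on chromosome 18, where 3 bins lie.

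Regions named are, in the limma table, those with the highest or lowest 2i/L p20 mean, the smallest or largest return and the most CpGs, 4 of each, though not all are printed. Genes named are the 10 with the most matched CpGs; any other is said to be chosen later or lies at a named region or within 5 kb.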

Additional observations from a re-analysis of the deposited data

How the results depend on the processing

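Of 165 alternative values for 17 results, 117 stayed within their limits and 48 moved. The number of bins depended most on the rule: 5 with 10 reads per CpG, 432 with 3 reads, 36 with at least 5 CpGs, 104 at limits of 10% and 70%, 358 at 20% and 50%, and 234 to 271 with 1 keratinocyte library left out. With 10 reads per CpG, the counts became 5 (p23 above 2i/L p20), 5 (a2i/L), 5 (PKCi/L), 7 (2i/L p20 below S/L p20), 5 (2i/L p10 below S/L p10), 0 (p23 against S/L p20) and 0 (p30 against S/L p20), from fewer bins. The quasi-binomial model called 3 bins for 2i/L p20 below p10, 1 for PKCi/L against a2i/L, 10 for p23 against S/L p20 and 24 for p30 against S/L p20. The count for p23 against S/L p20 was 0 with a pseudocount of 0.5, 0 with the 2 groups alone and 0 to 1 with a library left out. That for p30 against S/L p20, 14 in all, was 7 with a pseudocount of 0.5, 7 with the 2 groups alone and 5 to 7 with an S/L p20 library left out. The cause was not tested. The fits with the line as a replicate block also left out the p30 library titled J-35, which left 1 at p30. In comparisons without p30 they changed no call by over 1.5 times. Leaving out 1 library gave 206 to 207 (p23 above 2i/L p20), 0 to 11 (2i/L p20 below p10, 11 without J-34), 0 to 0 (p30 above p23), 203 to 205 (a2i/L), 203 to 205 (PKCi/L), 0 to 0 (PKCi/L against a2i/L), 262 to 271 (2i/L p20 below S/L p20) and 206 to 207 (2i/L p10 below S/L p10). Medians moved with the limits. At 10% and 70% they were 32.4% (2i/L p10), 79.3% (p23), 83.6% (p30), 88.7% (a2i/L p20) and 89.0% (PKCi/L p20). At 20% and 50% they were 27.6%, 74.7%, 79.0%, 83.4% and 85.5%. In the 1 bin with 10 or more CpGs they were 27.1%, 74.1%, 77.9%, 84.9% and 85.7%. Without bins of uneven depth, an alternative chosen after seeing the data, 209 bins remained, and 206 were higher at p23, 204 in a2i/L and 205 in PKCi/L.

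At the median depth of 52 reads per bin, differences of a few points in single bins and libraries were not detectable. Each line gave 1 library per group, the keratinocytes were 3 libraries, and the rule that chose the bins used their levels.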
